A study of Mus musculus with 4 samples.

Results

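Genes that carry leptin and insulin signals into the cell were followed in the hypothalamus of mice fed a western diet (WD), namely Lepr, Jak2, Stat3, Socs3, Ptpn1, Insr, Irs1, Irs2 and Foxo1. They were taken by name from the deposited table, with all RefSeq transcripts of a symbol summed, and make up 9 of the 16339 genes with a name there. All 9 passed the filter on low counts that left 14344 genes for testing. The libraries came from male C57BL/6 mice, 2 from wild-type (WT WD) animals and 2 from Tas1r3-/- animals (Tas1r3-/- WD), which lack a subunit of the sweet and umami taste receptors in every tissue, as conventional knockouts backcrossed to that strain. Mice of both genotypes were littermates that started the diet at the age of 8 weeks and received 60% fat food with a 30% sucrose solution for 12 weeks, so a normal diet is not part of this comparison. Replicates 1 and 2 of each genotype are called WT and knockout libraries below. The labels do not say whether each library is a separate animal, and the p-values below measure the spread between these libraries, which may be technical.

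Leptin, a hormone of fat tissue, binds its receptor on neurons of the hypothalamus, where the kinase JAK2 phosphorylates the receptor and the transcription factor STAT3 docks and moves to the nucleus. STAT3 switches on Socs3, whose product blocks the receptor, and the phosphatase PTP1B, encoded by Ptpn1, removes phosphate from JAK2 and from the insulin receptor. Insulin acts through its own receptor and the adaptors IRS1 and IRS2 on PI3-kinase and AKT, which keep the transcription factor FOXO1 out of the nucleus.

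Of the forms of the leptin receptor, the long one alone has the tail that binds STAT3, and its RefSeq transcript is NM_146146. The tail is shown here because the question for Lepr is how many of its few reads belong to that form. In GENCODE M39 the long form is Lepr-201, with 19 exons, 7815 bases and 1162 residues. The STAT3 docking tyrosine is residue 1138, encoded in the last exon within chr4:101672365-101672424 (GRCm39, plus strand), and the capitals mark the codons of the docking motif, which starts with this tyrosine:
Lepr-201 docking site: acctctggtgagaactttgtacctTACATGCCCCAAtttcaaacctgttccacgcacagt
This stretch of coding sequence was in 0 of the other 5 protein-coding Lepr transcripts with a full extracellular part, which end in other last exons and encode between 892 and 895 residues. For STAT3 and Socs3, the feedback arm of the pathway, the 250 bases before the Socs3 start are shown from RefSeq (chr11:117969367-117969616, GRCm38.p6, minus strand), with the one match to the STAT motif TTCNNNGAA in capitals:
Socs3 promoter: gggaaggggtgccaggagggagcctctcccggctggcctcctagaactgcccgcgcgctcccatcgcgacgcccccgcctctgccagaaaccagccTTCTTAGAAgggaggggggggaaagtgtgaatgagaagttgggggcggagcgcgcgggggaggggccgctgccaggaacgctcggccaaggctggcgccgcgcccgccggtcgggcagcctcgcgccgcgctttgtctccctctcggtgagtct
The motif, read on both strands, starts 154 bases before the start of the gene, and 7.02% of 32851 RefSeq promoters of this length hold it. Promoters were found for 8 of the 9 genes, and Insr had none in the table used. The promoters of the other 7 genes held no match to this motif. None of the 8 genes' promoters held the FOXO motif TGTTTAC, the CRE motif TGACGTCA or the AP-1 motif TGANTCA, which are in 3.17%, 1.55% and 6.75% of all promoters. The shorter CRE core TGACG, which overlaps the CRE motif and is in 17.8% of all promoters, was found once, in that of Irs1. A match is a description of the letters and not a measured binding site.

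The libraries held between 5874782 and 6273772 estimated counts, and 1 of them went against its tissue label. The 8 hypothalamus markers, which include the neuropeptides Oxt, Avp, Hcrt and Pmch, reached a summed CPM, that is, counts scaled to library size, of 1588 in WT WD replicate 1 and of 902 and 1154 in the knockouts, but of 17.1 in WT WD replicate 2. All 8 were lowest there, and Nkx2-1, the transcription factor that patterns the hypothalamus, had a count of 0. The 7 thalamus markers were all highest in that library, with a sum of 1703 CPM against 95.1 to 251 CPM in the other 3. Its choroid plexus markers summed to 769 CPM, of which Ttr alone gave 678, against 40.4 to 59.6 CPM. Of these 8 markers, 6 were highest in that library, while Kl and Clic6 were highest in WT WD replicate 1. The 6 anterior pituitary markers, led by Gh, summed to 1428 CPM in Tas1r3-/- WD replicate 1 and to between 1.73 and 14.6 CPM in the other libraries. Across all genes tested, the root mean square log2 difference between the WT WD replicates was 0.759, against 0.373 between the Tas1r3-/- WD replicates and 0.411 and 0.417 between WT WD replicate 1 and each Tas1r3-/- WD library. The log2 fold changes of the 9 genes are therefore also given without WT WD replicate 2, as are those of other named genes where leaving it out turned the direction or moved the value by over 1.5 times. In that case WT WD is a single library assumed to vary like the Tas1r3-/- WD libraries. The libraries left still differed in tissue markers by genotype. Hypothalamus markers summed to 1588 CPM in WT WD replicate 1, against 902 and 1154 CPM in the knockouts. For thalamus markers the sums were 95.1 CPM in WT WD replicate 1, against 144 and 251 CPM in the knockouts. In such bulk tissue, fewer cells of a type and less RNA per cell cannot be told apart.

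**Figure D1:**
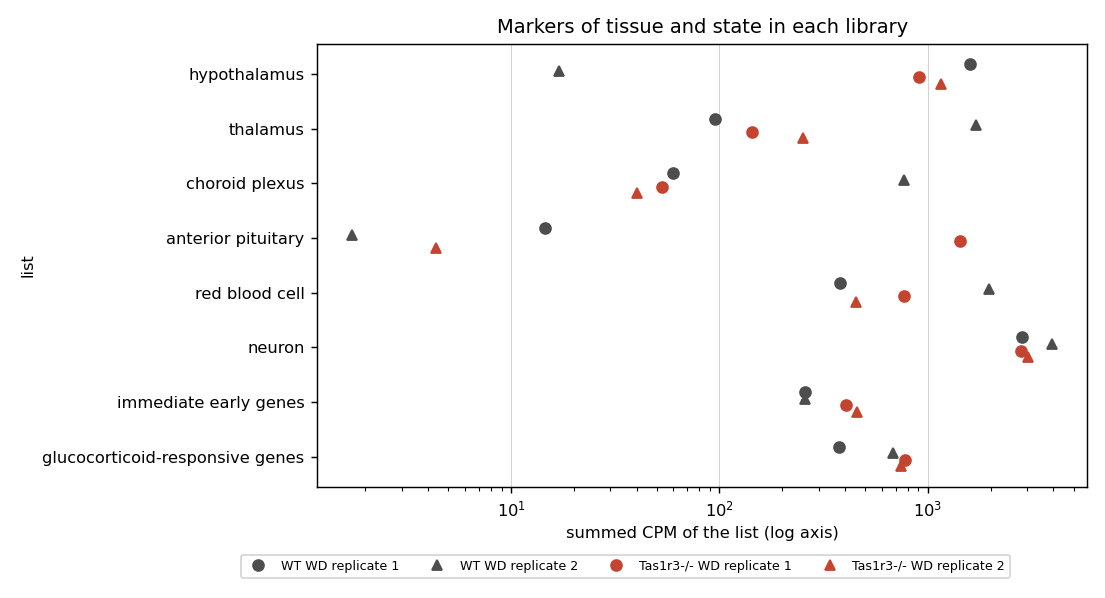
Summed CPM of lists of tissue and state markers (log axis) in each library, with WT WD in grey and Tas1r3-/- WD in red, circles for replicate 1 and triangles for replicate 2. WT WD replicate 2 lies far to the left for hypothalamus markers (17.1 CPM) and far to the right for thalamus markers (1703 CPM), and Tas1r3-/- WD replicate 1 stands apart for pituitary markers (1428 CPM).

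As the check of the labels, Tas1r3 had 35.3 and 27.0 estimated counts in the WT libraries, against 7.0 and 7.0 in the knockouts. The groups did not overlap, with a log2 fold change of -2.13 ± 0.42 (SE) and an adjusted p of 0.756 in edgeR. The remaining counts in the knockout were not traced to a part of the gene here.

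All 9 leptin and insulin signalling genes had a higher mean in Tas1r3-/- WD than in WT WD, although none passed the test. A higher mean was found for 49% of all genes tested. The directions of the 9 genes are not independent, since some genes moved together over the same 4 libraries. Pearson r was 1.00 for Stat3 and Insr and 0.992 for Jak2 and Irs2, but -0.536 for Socs3 and Ptpn1. For 7 of the 9 genes, both knockout libraries exceeded both WT libraries, which held for 20.6% of all genes (the reverse held for 18.9%). Lepr had the largest log2 fold change, 1.14 ± 0.52 (SE), followed by Foxo1 with 0.78 ± 0.22 and Irs2 with 0.49 ± 0.17. The median log2 fold change was 0.31, beside -0.01 over all genes. Genes called needed an adjusted p under 0.05 in edgeR's quasi-likelihood test and a fold change of at least 1.5. By this rule 0 of 14344 genes were called (0%), while 772 genes had an unadjusted p under 0.05. Those higher in Tas1r3-/- WD made up 3.5% of all genes and those lower 1.88%, and of the 9 genes Foxo1 and Irs2 were among the higher ones. DESeq2 called 8 genes (0.049%), none of them one of the 9.

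When WT WD replicate 2 was left out, 8 of the 9 genes still had both Tas1r3-/- WD libraries above the remaining WT WD library, Socs3 being the exception, against 37.6% of all genes. With the other WT library left out instead, the count was also 8, with Ptpn1 as the exception, against 41.8% of genes. Without Tas1r3-/- WD replicate 1 or 2 the counts were 7 and 8, against 29.6% and 32% of genes. The median over the 9 genes was 0.28 without WT WD replicate 2 and between 0.34 and 0.50 when any other library was left out.

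**Figure D2:**
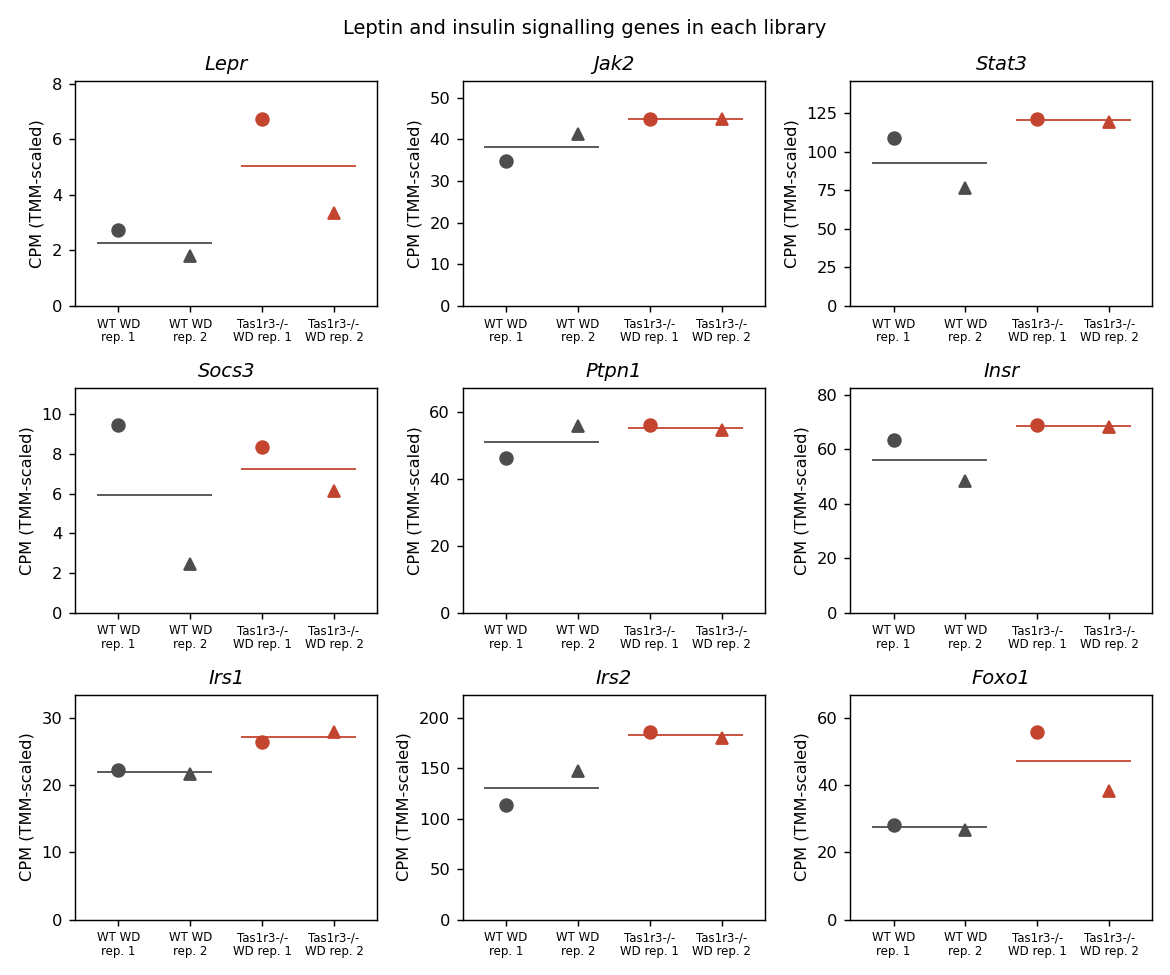
Each panel shows 1 gene, with its TMM-scaled CPM in the 4 libraries as points and the mean of each genotype as a line (WT WD in grey, Tas1r3-/- WD in red). Socs3 and Ptpn1 overlap between genotypes, and in the other 7 panels both red points lie above both grey points.

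Lepr, the receptor for leptin (chr4:101574601-101676237, plus strand; positions of genes are on GRCm39), was the least abundant of the 9 genes. It had 16 and 11 estimated counts in the WT libraries, against 42 and 19 in the knockouts, that is, 2.75 and 1.81 CPM against 6.75 and 3.33 CPM. The groups did not overlap, and Tas1r3-/- WD replicate 1, the library with pituitary markers, was the highest. The log2 fold change was 1.14 ± 0.52 (SE), with a 95% interval from -0.19 to 2.48 and an adjusted p of 0.756 in edgeR. The point estimate is a 2.21-fold higher level, but the interval includes both no difference and a 5.57-fold difference. Counting error alone gives 95% Poisson intervals from 9.14 to 26.0 and from 5.49 to 19.7 counts for the WT libraries, and from 30.3 to 56.8 and from 11.4 to 29.7 counts for the knockouts. The interval of knockout replicate 1 lay above those of the other 3 libraries, which overlapped one another. Summed within genotypes, the intervals ran from 17.8 to 39.3 counts in WT and from 46.7 to 78.4 in the knockout and did not overlap. These intervals are on counts not scaled to library size and leave out the spread between libraries. Its size was 0.88 without WT WD replicate 2 and 0.54 without knockout replicate 1, so the latter library moved it by more than any other. The part of the pituitary markers in this result was not tested. Leprot, a neighbouring gene on the same strand that acts on the traffic of the receptor, had 20.4 and 15.7 CPM in the WT libraries, against 18.6 and 18.9 CPM in the knockouts, with a log2 fold change of 0.06 ± 0.21 that turned to -0.12 without WT WD replicate 2.

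The long, STAT3-binding transcript of Lepr, NM_146146, held most of the counts in 3 of the 4 libraries. It had 11.8 and 4.41 estimated counts in the WT libraries, against 26.5 and 10.6 in the knockouts. The groups overlapped, with a log2 fold change of 1.15 ± 0.93 (SE), a 95% interval from -1.26 to 3.55 and an adjusted p of 0.944 in edgeR over 25699 transcripts, of which 0% were called. Leaving out WT WD replicate 2 or knockout replicate 1 lowered the estimate to 0.55 and 0.49, and leaving out WT WD replicate 1 gave 2.18. The long form took 56.9% ± 23.8 (SD, n = 2) of the Lepr counts in WT WD and 59.4% ± 5.17 (SD, n = 2) in Tas1r3-/- WD (exact permutation test, two-sided, p = 1.0). With 2 libraries against 2 this test cannot go below 0.333. The other transcripts were too low for the test. NM_010704 had 4.19 and 0 counts in the WT libraries, against 15.5 and 3.13 in the knockouts, and NM_001122899 had 0 and 6.59 counts in the WT libraries, against 0 and 5.29 in the knockouts. Each was at 0 in at least 1 library, where a count of 0 allows up to 3 counts, or 0.482 to 0.526 CPM in these libraries. With these counts and this spread, a difference in the share of the long form was not detectable.

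Jak2, the kinase bound to the receptor (chr19:29228677-29290505, plus strand), had 34.9 and 41.2 CPM in the WT libraries, against 45.0 and 44.9 CPM in the knockouts. The knockout libraries were nearly equal and both higher, by 0.24 ± 0.15 (SE) on the log2 scale, with a 95% interval from -0.14 to 0.62 and an adjusted p of 0.759. The log2 fold change was 0.37 when WT WD replicate 2 was left out and 0.13 when WT WD replicate 1 was left out. The transcripts of Jak2 were divided differently in 1 knockout library. Of NM_001048177 the table lists 39.4, 62.7 and 67.0 estimated counts for both WT libraries and knockout replicate 1, and 152 for knockout replicate 2. NM_008413 had 164, 188 and 213 counts in the former 3 libraries and 104 in the last. The sum of both was steadier than either transcript.

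Stat3, the transcription factor that docks on the long receptor (chr11:100775924-100830450, minus strand), had 109 and 76.8 CPM in the WT libraries, against 122 and 120 CPM in the knockouts. The low value was that of WT WD replicate 2, and the log2 fold change of 0.38 ± 0.20 (SE; 95% interval -0.14 to 0.90, adjusted p 0.756) became 0.14 without it, with an adjusted p of 0.575. The difference between the WT WD replicates was thus larger than the difference between WT WD replicate 1 and the knockout. Stat3 was called without WT WD replicate 1, at a log2 fold change of 0.65, but 14.6% of all genes were called in that comparison, where the library low in hypothalamus markers is the only WT library. The largest share of Stat3 counts in each library fell on NM_213659, with 365 and 174 estimated counts in the WT libraries, against 453 and 381 in the knockouts. This share was 37.4% in WT WD replicate 2 and at least 55.8% in every other library. The transcript NM_213660 had 147, 132, 165 and 128 counts in the same order, and NM_011486 had 123, 160, 140 and 173. The low value of WT WD replicate 2 thus lay mainly in NM_213659.

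Socs3, the inhibitor that STAT3 induces and whose promoter is printed above, was the gene whose direction was least settled (NM_007707; chr11:117856905-117860898, minus strand). It had 9.45 and 2.45 CPM in the WT libraries, against 8.35 and 6.14 CPM in the knockouts. WT WD contained both the highest and the lowest library, and the log2 fold change of 0.29 ± 0.65 (SE) had a 95% interval from -1.39 to 1.97 and an adjusted p of 0.918. Without WT WD replicate 2 it turned to -0.38, with an adjusted p of 0.667, and without WT WD replicate 1 it was 1.55 and called, in the comparison with 14.6% of all genes called and WT WD replicate 2 as the only WT library. These values rest on 55 and 15 counts in the WT libraries, against 52 and 35 in the knockouts. Ptpn1, the phosphatase that acts on both receptors' signals (NM_011201; chr2:167773944-167821309, plus strand), had 46.4 and 55.8 CPM in the WT libraries, against 56.1 and 54.7 CPM in the knockouts. The groups overlapped, with a log2 fold change of 0.12 ± 0.14 (SE) and a 95% interval from -0.26 to 0.49. Leaving out WT WD replicate 2 gave 0.26, and leaving out replicate 1 of that group gave -0.01.

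On the insulin side, Insr, the receptor (chr8:3172061-3329647, minus strand), had 63.6 and 48.4 CPM in the WT libraries, against 68.8 and 68.4 CPM in the knockouts. Both knockout libraries were higher, with WT WD replicate 2 again the lowest, and the log2 fold change was 0.29 ± 0.17 (SE; 95% interval -0.15 to 0.73, adjusted p 0.756). Leaving out WT WD replicate 2 gave 0.11, and leaving out the other WT library gave 0.50. Insr was listed as 2 transcripts. NM_010568 had 260 and 161 estimated counts in the WT libraries, against 276 and 235 in the knockouts (log2 fold change 0.26 ± 0.31, adjusted p 0.959). NM_001330056 had 110 and 133 counts in the WT libraries, against 152 and 155 in the knockouts (0.33 ± 0.24, adjusted p 0.941). For NM_001330056 the groups did not overlap, whereas NM_010568 overlapped and turned to -0.07 without WT WD replicate 2. The share of NM_001330056 in the Insr counts was 37.5% ± 11 (SD, n = 2) in WT WD and 37.6% ± 2.91 (SD, n = 2) in Tas1r3-/- WD (exact permutation test, two-sided, p = 1.0). The insulin receptor is known in forms with and without a small alternative exon, and which of them each accession carries was not given in the sources used here.

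**Figure D3:**
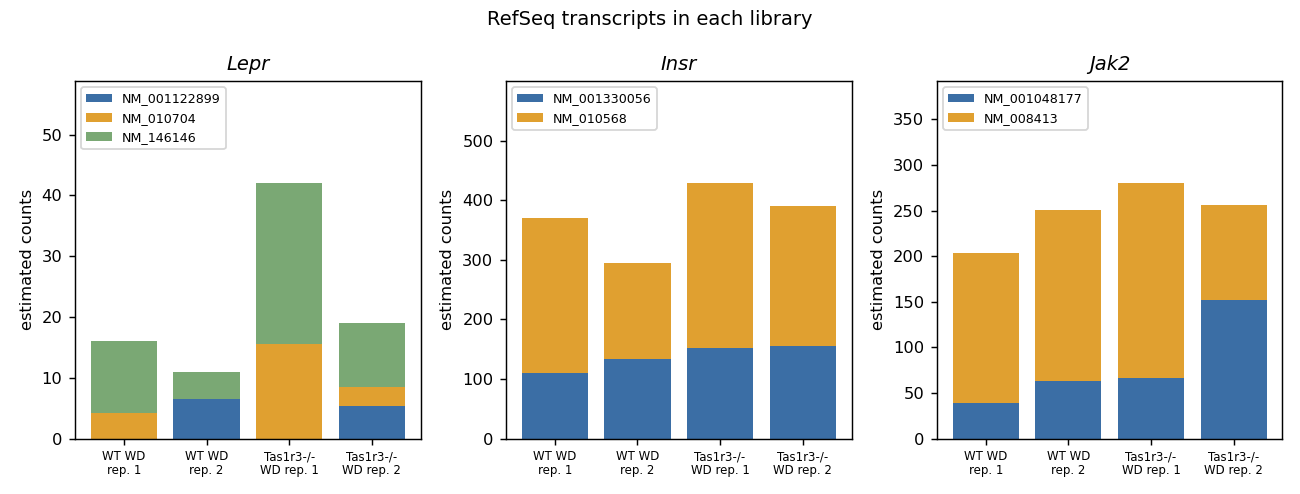
Stacked bars give the estimated counts of each RefSeq transcript of Lepr, Insr and Jak2 in the 4 libraries, with the height of a bar as the sum for the gene. Lepr rests on 11 to 42 counts per library, and in Tas1r3-/- WD replicate 2 NM_001048177 makes up most of the Jak2 bar (152 counts).

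Irs1 and Irs2, the adaptors that link the insulin receptor to PI3-kinase, were both higher in each knockout library. Irs1 (NM_010570; chr1:82210822-82269338, minus strand) had 22.3 and 21.6 CPM in the WT libraries, against 26.5 and 27.9 CPM in the knockouts, with the smallest spread within WT WD of the 9 genes relative to its level. Its log2 fold change was 0.31 ± 0.15 (SE; 95% interval -0.09 to 0.70, adjusted p 0.756), and 0.28 without WT WD replicate 2. Irs2 (NM_001081212; chr8:11034681-11059499, minus strand) had 113 and 147 CPM in the WT libraries, against 186 and 180 CPM in the knockouts. Its log2 fold change was 0.49 ± 0.17 (SE), a 1.41-fold higher level, with a 95% interval from 0.05 to 0.94 before adjustment and an adjusted p of 0.756. With WT WD replicate 2 left out, Irs2 was the only one of the 9 genes called, with a log2 fold change of 0.69 and an adjusted p of 0.0303 in edgeR, when 0.272% of all genes (39) were called. The estimated counts of Irs2 were 5.07 and 6.80 times those of Irs1 in WT WD and 7.01 and 6.45 times in Tas1r3-/- WD, so the ratio of the adaptors overlapped between genotypes.

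Foxo1, the transcription factor that AKT holds in the cytoplasm (NM_019739; chr3:52175757-52260642, plus strand), differed most among the genes with over 100 counts in every library. It had 28.2 and 26.6 CPM in the WT libraries, against 55.8 and 38.3 CPM in the knockouts, or 164, 161, 347 and 218 estimated counts. WT WD replicates were close to each other, and the knockout libraries were both higher but far apart. The part of the tissue markers in these values was not tested. The log2 fold change was 0.78 ± 0.22 (SE), a 1.72-fold higher level, with a 95% interval from 0.21 to 1.36 before adjustment and an adjusted p of 0.756. This became 0.74 without WT WD replicate 2. It became 0.48 without knockout replicate 1, the library with pituitary markers, and 1.02 without knockout replicate 2. With WT WD replicate 1 left out, when again 14.6% of all genes were called, Foxo1 was called at a log2 fold change of 0.83. Leaving out either knockout library left 0 genes called by edgeR (0%), with 86 and 119 genes at an unadjusted p under 0.05.

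**Figure D4:**
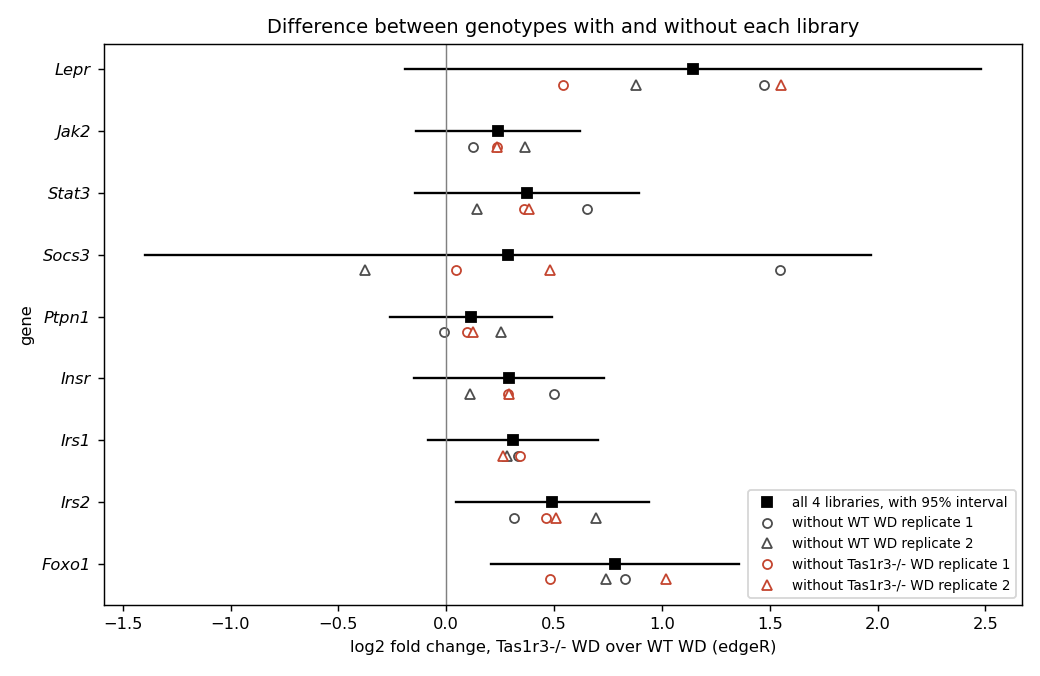
The log2 fold change of each gene (Tas1r3-/- WD over WT WD, edgeR) with its 95% interval from all 4 libraries is drawn in black, and the open symbols below it give the estimate without 1 library. The intervals of Foxo1 and Irs2 lie above 0 before adjustment over all genes, and Socs3 runs from -0.38 to 1.55 depending on the WT WD library left out.

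Per kilobase of the canonical GENCODE transcript, the mean level over the 4 libraries fell in the order Stat3 with 23.4 CPM per kb, Irs2 with 21.2, Ptpn1 with 11.8, Jak2 with 7.54, Insr with 6.64, Foxo1 with 4.30, Irs1 with 2.63, Socs3 with 2.48 and Lepr with 1.07. The ranges over libraries of Stat3 and Irs2 overlapped, as did those of Jak2 and Insr, Insr and Foxo1, Irs1 and Socs3, and Socs3 and Lepr. Irs2 stood clear of Ptpn1, Ptpn1 of Jak2 and Foxo1 of Irs1. For Lepr the length is that of a short form of 3410 bases, and its level per kilobase would be lower with the length of the long form. The genes fell into patterns over the 4 libraries that other genes shared closely. Stat3 was most like Dlg5 and Tet2, and Tet2 was also among the closest to Insr, each with a Pearson r of 1.00 after rounding over 4 libraries. With 4 libraries such values are common, since 9.80% of 8615 genes reached 0.95 with Stat3, 9.97% with Insr, 2.76% with Foxo1 and 2.72% with Irs2. Foxo1 was closest to Nfasc and Ube2j2, and Irs2 to Cyld and Atp11a. Lepr was closest to Jade1 and Hmbox1, Jak2 to Snx13 and Ndufaf5, Socs3 to Thnsl1 and Chrm1, Ptpn1 to Lrfn2 and Psat1, and Irs1 to Flvcr1 and Nfx1.

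Around these 9 genes, 100 further genes of the pathway were listed in 8 groups, and 94 were tested. In edgeR 0 were called, the knockout mean was higher for 58 and lower for 36, and for 25 (26.6%) both knockout libraries exceeded both WT libraries while for 12 (12.8%) they fell short of them. The background over all genes for these counts is the 20.6% and 18.9% given above. At an unadjusted p under 0.05 in edgeR there were 8 higher genes and 1 lower gene among the 94. Over all genes tested, 3.5% were higher and 1.88% lower at this threshold. The ligands Lep, Ins1 and Ins2 were not among the transcripts of the table, and Igf2, a growth factor of the insulin family, had a log2 fold change of -0.12 ± 0.24 (SE), or -0.28 without WT WD replicate 2, and turned to 0.07 without WT WD replicate 1 and 0.12 without knockout replicate 2. Igf1, the other ligand tested, had -1.04, and the median of the pair was -0.58. Without WT WD replicate 2 this median turned to 0.26 while Igf2 was at -0.28, so Igf1 turned positive without that library.

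Among 16 partners and regulators of the leptin receptor, 11 had a higher and 5 a lower mean, with a median log2 fold change of 0.12 that was 0.00 without WT WD replicate 2. Both knockout libraries lay above for 4 (25%) and below for 2 (12.5%), against 20.6% and 18.9% of all genes. The former included Stat5b, a further transcription factor used by the receptor, with 103 and 69.4 CPM in the WT libraries, against 115 and 114 CPM in the knockouts. Another was Tyk2, a kinase related to JAK2, with a log2 fold change of 0.23. Without WT WD replicate 2, the log2 fold change of Stat5b went from 0.41 to 0.15 and that of Tyk2 to 0.36. Ptpn11, encoding the phosphatase SHP2 that couples the receptor to ERK, was the most abundant of the group, with 214 and 215 CPM in the WT libraries, against 239 and 243 CPM in the knockouts (0.17 ± 0.12). Socs2, an inhibitor of cytokine receptors, had 6.18 and 12.9 CPM in the WT libraries, against 5.94 and 4.21 CPM in the knockouts, and its log2 fold change of -0.92 became -0.28 without WT WD replicate 2. Pias3, an inhibitor of STAT3, had -0.11, or -0.04 without that library.

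Among 14 partners of the insulin receptor, 8 had a higher and 6 a lower mean, with a median of 0.02. Cbl, a ubiquitin ligase and adaptor of receptor tyrosine kinases, had 21.5 and 18.7 CPM in the WT libraries, against 33.7 and 35.1 CPM in the knockouts. Its libraries separated by genotype with little spread within either, at a log2 fold change of 0.78 ± 0.16 (SE; 95% interval 0.36 to 1.19, adjusted p 0.756) and 0.68 without WT WD replicate 2. Grb14, an inhibitor of the insulin receptor, had 23.2 and 39.0 CPM in the WT libraries, against 16.2 and 21.4 CPM in the knockouts, a log2 fold change of -0.73 ± 0.31 that was -0.31 without WT WD replicate 2. Shc3, the most abundant adaptor of this group, had 125 CPM in WT WD replicate 1, 140 and 178 CPM in Tas1r3-/- WD and 454 CPM in WT WD replicate 2, and was highest in the library with thalamus markers. Its log2 fold change of -0.87 turned to 0.34 without that library. Sh2b2, an adaptor of the receptor, had a log2 fold change of 0.50 that was 0.10 without WT WD replicate 2.

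The branch of PI3-kinase and AKT had 15 of 20 genes with a higher mean, where 49% of all genes had one. Its median log2 fold change was 0.14, or 0.25 without WT WD replicate 2. Both knockout libraries lay above for 7 of the 20 (35%) and below for 2 (10%), against 20.6% and 18.9% of all genes. Pik3r1, the regulatory subunit that binds IRS proteins, had 62.6 and 68.5 CPM in the WT libraries, against 90.8 and 81.7 CPM in the knockouts (0.39 ± 0.13, adjusted p 0.756). Pdpk1, the kinase that activates AKT, had 115 and 104 CPM in the WT libraries, against 143 and 141 CPM in the knockouts (0.37 ± 0.13). Both kept a positive log2 fold change without WT WD replicate 2, of 0.46 and 0.30. Phlpp2, a phosphatase of AKT, and Pde3b, a phosphodiesterase that AKT activates, had log2 fold changes of 0.46 and 0.61, or 0.25 and 0.38 without WT WD replicate 2. Akt2 and Gsk3a, the kinases further along the branch, had log2 fold changes of -0.18 and -0.17 with both knockout libraries below both WT WD libraries. In the mTOR branch, 6 of 14 genes had a higher and 8 a lower mean, with a median of -0.09. Both knockout libraries lay above for 4 of them (28.6%) and below for 6 (42.9%), against 20.6% and 18.9% of all genes. Rictor, a subunit of the complex that phosphorylates AKT, had a log2 fold change of 0.37 ± 0.14, and Rps6kb2, one of the S6 kinases, had 41.7 and 44.4 CPM in the WT libraries, against 27.9 and 30.3 CPM in the knockouts (-0.56 ± 0.14). Mtor itself had 0.26 ± 0.15, Tsc1, an inhibitor of the branch, had 0.38 ± 0.16, or 0.23 without WT WD replicate 2, and Deptor, an inhibitor of mTOR, had -0.54 ± 0.29, or -0.09 without that library.

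**Figure D5:**
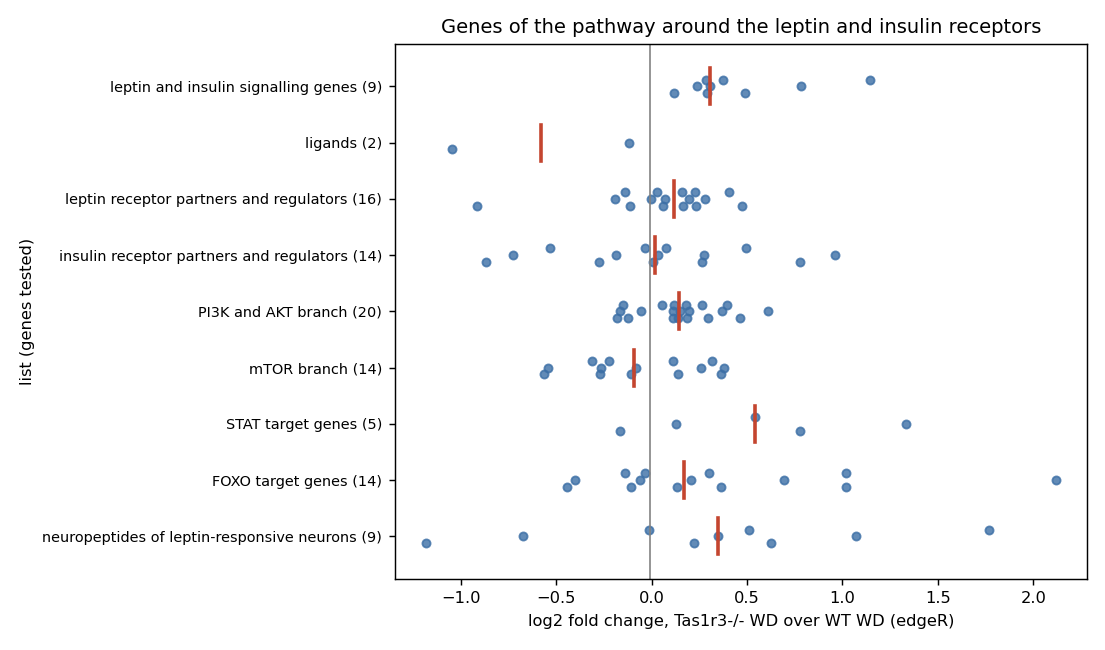
Each point is the log2 fold change of 1 gene (Tas1r3-/- WD over WT WD, edgeR), by list, with the number of genes tested in brackets, the list's median as a red bar and the median of all genes (-0.01) as a grey line. The 9 leptin and insulin signalling genes all lie right of the line, and Cdkn1a (2.12) is the point farthest to the right.

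Targets of the pathway's transcription factors included Cdkn1a, which had the largest log2 fold change of the 94 pathway genes tested. Of 5 STAT targets tested, 4 had a higher mean. Osmr, a subunit of the oncostatin M receptor, had 13 and 17 estimated counts in the WT libraries, against 37 and 39 in the knockouts (log2 fold change 1.34 ± 0.34). Serpina3n, an acute-phase serpin of astrocytes, had 89.0 and 25.3 CPM in the WT libraries, against 85.6 and 81.0 CPM in the knockouts. Its low library was WT WD replicate 2, and its log2 fold change of 0.54 turned to -0.09 without that library. Of 14 FOXO targets, 8 had a higher and 6 a lower mean, with a median of 0.17. Cdkn1a, the cell-cycle inhibitor p21, had 8.24 and 6.26 CPM in the WT libraries, against 28.7 and 34.4 CPM in the knockouts, a log2 fold change of 2.12 ± 0.23. It was called by DESeq2, with an adjusted p of 9.25e-05, and not by edgeR with all 4 libraries (adjusted p 0.756). Bcl6, a transcriptional repressor, had 28.4 and 23.2 CPM in the WT libraries, against 48.2 and 56.5 CPM in the knockouts (1.02 ± 0.17), and Pdk4, which restrains the use of glucose, had 5.50 and 8.43 CPM against 10.9 and 17.4 CPM (1.02 ± 0.36). Sod2, the most abundant FOXO target, had -0.06 ± 0.14, and Cat, which encodes catalase, had -0.40 ± 0.20. Without WT WD replicate 2, Sod2 turned to 0.03 and Cat was at -0.13.

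Lists of genes that answer to other signals also differed between these libraries. Glucocorticoid-responsive genes summed to 373 and 677 CPM in the WT libraries, against 775 and 742 CPM in the knockouts. Both knockout libraries lay above both WT libraries for 4 of these 6 genes (66.7%), against 20.6% of all genes. Among them, Fkbp5, which restrains the glucocorticoid receptor, had a log2 fold change of 0.71 ± 0.22, and Zbtb16 had 10.1 and 7.41 CPM in the WT libraries, against 73.6 and 39.1 CPM in the knockouts. Foxo1, Fkbp5 and Zbtb16 were highest in Tas1r3-/- WD replicate 1. In contrast, Sgk1 and Tsc22d3, with 152 and 161 CPM in the knockouts, were highest in Tas1r3-/- WD replicate 2, and Per1 in WT WD replicate 2. Sgk1, a kinase related to AKT, had 24.3 and 107 CPM in the WT libraries, against 161 and 192 CPM in the knockouts, and Tsc22d3 had a log2 fold change of 0.69 and Per1, the most abundant of the list, one of -0.01. Without WT WD replicate 2, the log2 fold change of Sgk1 went from 1.43 to 2.85 and that of Per1 turned to 0.35. Immediate early genes, a sign of recent neuronal activity, summed to 257 and 257 CPM in the WT libraries, against 405 and 455 CPM in the knockouts. Of these 9 genes, 7 (77.8%) had both knockout libraries above and 1 (11.1%) both below, against 20.6% and 18.9% of all genes. The AP-1 subunits Fosb and Fosl2 had log2 fold changes of 2.51 and 2.40, Egr1 of 0.83, Fos of 0.55 and Npas4 of -0.23. DESeq2 called Fosb (adjusted p 0.000128), Fosl2 (1.16e-06) and the glucocorticoid-responsive Zbtb16 (5.00e-06), whereas edgeR with all 4 libraries called none of them. The part of both lists in the values of the leptin and insulin signalling genes was not tested.

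For neuropeptides of leptin-responsive neurons, the direction depended on which WT library was used. The knockout mean was higher for 6 of 9 tested and lower for 3. For 1 (11.1%) both knockout libraries lay above, against 20.6% of all genes. The median log2 fold change of 0.35 went to -0.34 when WT WD replicate 2 was left out and to 2.82 when replicate 1 of that group was left out. Pomc, the precursor of an appetite-suppressing peptide and also a gene of the anterior pituitary, had 112 and 2.47 CPM in the WT libraries, against 343 and 45.3 CPM in the knockouts, with the highest value in the library that held pituitary markers. Its log2 fold change of 1.77 was 0.80 without WT WD replicate 2 and turned to -0.34 without that knockout library. Nts, which encodes neurotensin, had 23.7 and 4.12 CPM in the WT libraries, against 28.6 and 29.8 CPM in the knockouts, and its log2 fold change of 1.07 was 0.30 without WT WD replicate 2.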

How the data were processed

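RNA sequencing of hypothalamus from male mice on WD was analysed, with 2 libraries per genotype grouped by the sample titles (the study's methods state more mice per group than the libraries analysed here). Per the labels and methods, the authors mapped Ion Torrent reads by STAR, run within Partek Flow, to the mm39 build, and they deposited an estimated count for each RefSeq transcript, without normalization. Versions are not given in the sources used here. The 4 single-sample tables repeat the joint table. Each of 30930 transcripts has a total of at least 10 counts, and 13.0% of the values are whole numbers. Transcripts were summed by symbol and a RefSeq table (GRCm38.p6) served to name them. The 39 without a name, which held between 0.347% and 2.49% of a library, were left out.

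Summed counts were rounded and tested in edgeR 4.0.16 (R 4.3.3) by the quasi-likelihood test with TMM, filterByExpr and Benjamini-Hochberg adjustment over all genes. A gene was called at a fold change of 1.5 or more with an adjusted p under 0.05. CPM values are TMM-scaled. Intervals and limits of counts cover counting error only. DESeq2 1.42.0, limma 3.58.1, other scalings and filters, a replicate block and leaving out each library were alternatives, and the counts of separated libraries with a library left out were added after seeing the data. No set test was run. Transcripts were tested alike, each rounded on its own. Coordinates and lengths are from GENCODE M39 on GRCm39, and promoters from RefSeq on GRCm38.p6.

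The genes and lists were chosen with earlier results of these data known. Named are the 9 genes, the transcripts of Lepr and Insr, and from each list the genes called, those with an unadjusted p under 0.05, the most abundant, and the 2 largest rises and 2 largest falls without overlap at a mean of at least 5 CPM. Likeness used the 2 highest Pearson r of log2 CPM among genes with a mean of at least 20 CPM. The Jak2 and Stat3 transcripts, Leprot, and the tissue and state markers named were chosen after their values were seen. Figures were drawn with matplotlib 3.10.9.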

Additional observations from a re-analysis of the deposited data

How the results depend on the processing

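The log2 fold changes of all 9 genes kept their sign and stayed uncalled with RLE size factors, library totals, DESeq2, limma-trend, both other filters and the replicate block. DESeq2 called 8 genes in all and 1 further gene of the pathway (Cdkn1a). In the fit with replicate number as a block, 0 of the 9 genes and 0 of all genes were called. Same-numbered libraries deviated together with a correlation of 0.08, so the numbers were not taken to pair the samples, and the median log2 fold change of the STAT targets was 0.78 with the block.

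Leaving out 1 library in turn, with the spread pooled over the remaining 3 and the lone library assumed to vary like the others, changed the calls. The number called ranged from 0 to 3 among the 9 genes, from 0 to 2090 among all genes and from 0 to 28 among the further pathway genes. When WT WD replicate 1 was out, the 9 genes' calls were Stat3 (0.65), Socs3 (1.55) and Foxo1 (0.83), and Ptpn1 turned to -0.012. Without WT WD replicate 2 Irs2 was called (0.69), and Socs3 (-0.38) and the Insr transcript NM_010568 (-0.074) turned. The log2 fold changes ranged from 0.14 to 0.65 for Stat3, from -0.38 to 1.55 for Socs3, from 0.31 to 0.69 for Irs2, from 0.48 to 1.02 for Foxo1 and from -0.012 to 0.26 for Ptpn1. The cause was not tested, beside the tissue markers of WT WD replicate 2 given above. Lepr had 11 to 42 counts per library, with the spread between libraries given above.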
